A study of Homo sapiens with 10 samples.

Results

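Before IDH1-R132H was induced in immortalized human astrocytes, 43870 islands of H4K16ac lay where neither H3K9ac nor H3K27ac had an island, and these H4K16ac-only sites were followed through 2 and 7 days of doxycycline. An island is a stretch of the genome in which the antibody library held more reads than the control library, as listed by the authors. The 43870 sites were every island of the H4K16ac list without doxycycline on chromosomes 1 to 22 that overlapped, by 1 bp or more, no island of the other lists without doxycycline. They were 40.03% of the 109591 H4K16ac islands on those chromosomes and held 32.9% of the reads in them. The series lists 778774 islands in all. The remaining H4K16ac islands overlapped H3K9ac only (23663), H3K27ac only (7802) or both (34256). The sites were chosen by the authors' island calls of the 3 marks without doxycycline, so their H4K16ac signal without doxycycline and their lack of the other marks there are a description and not a finding.

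The cells were IHA, a fetal human astrocyte line immortalised with SV40, with an IDH1-R132H that doxycycline at 1 µg/ml switches on. Each antibody was used on cells after 2 days of doxycycline and after 7 days of doxycycline, labelled IDH1-R132H, and on cells without doxycycline, labelled WT IDH1. The assay was CUT&RUN, in which an antibody brings a nuclease to the chromatin that carries its target and the cut fragments are sequenced. As control, cells without doxycycline were processed with an HRP-linked secondary antibody alone, and this 1 library served all 9 antibody libraries. There was 1 library per mark and time, so no value below has a replicate error and no test between times was possible. None of the libraries used here came from doxycycline-treated cells that lacked IDH1-R132H, so doxycycline and time in culture cannot be told apart from IDH1-R132H. The astrocyte identity was not checked here, because the gene positions at hand are on another genome build than the files.

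H4K16ac is acetylation of the tail of histone H4. It is written mainly by the acetyltransferase KAT8 (MOF) and is known for hindering the folding of nucleosome arrays into compact chromatin. H3K9ac and H3K27ac sit on the tail of histone H3, H3K9ac mostly at active promoters and H3K27ac at active promoters and enhancers. IDH1-R132H makes 2-hydroxyglutarate, which inhibits enzymes that use 2-oxoglutarate, among them histone and DNA demethylases.

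The libraries differed in depth, known here only relative to the control library, and no spike-in is named, so a change in total acetylation cannot be told apart from library size. The H4K16ac libraries had relative sizes of 2.53 before induction, 3.08 at 2 days and 7.88 at 7 days. For H3K9ac they were 3.05, 4.17 and 4.88, and for H3K27ac 3.98, 3.15 and 1.49, in the same order of times. Within a mark, deeper libraries had lists that covered more of the genome. H4K16ac islands covered 9.54% of chromosomes 1 to 22 before induction, 11.5% at 2 days and 20.3% at 7 days. Counts in the text are reads. Where libraries are compared, reads are divided by relative library size, unless raw counts are named or stand beside the divided ones. Intervals are exact Clopper-Pearson intervals at 95%, which take islands as independent and cover counting error only; reads copied by PCR are not independent molecules. Positions are on hg19.

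The H4K16ac-only sites were short and held few reads. Their median length was 1800 bp (quartiles 1400 and 2600), against 2400 bp both for islands shared with H3K9ac only and for islands shared with both marks. Their median count was 27 reads (quartiles 22 and 36), against 35 and 36 reads in those other groups. Islands shared with H3K27ac only were nearly as small, with 28 reads over 2000 bp. Just 10.00% of the sites held at least 50 reads and 0.666% at least 100, against 28.4% and 4.91% of islands with both marks. Reads per kb hardly differed, at 14.7 in the H4K16ac-only sites and 15.8 in islands with both marks. The sites were shorter, with a read density close to that of the other islands.

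As a group the sites stood above the control as far as the other H4K16ac islands did. All their antibody reads together were 3.28 times their control reads after depth scaling, against 3.30, 3.22 and 3.23 times for islands with H3K9ac only, with H3K27ac only and with both. The authors' fold of each site had a median of 3.75 with quartiles of 2.17 and 23.7, and 79.7% of the sites reached 2-fold. For islands with H3K9ac only, with H3K27ac only and with both, 83.2%, 78.7% and 81.7% reached it. The upper quartile of the sites rests on empty control counts, where the fold uses 0.25 in place of 0. No control read was held by 25.95% of the sites (11385), against 22.6% of all H4K16ac islands. A second fold, added after the data were seen, set each site against the larger of its own control count and the list's mean control density of 1.85 reads per kb. Its median was 2.76 (quartiles 2.13 and 3.46). By that measure 34668 sites (79.0%) reached 2-fold, 5957 (13.6%) reached 4-fold and 293 (0.668%) reached 8-fold. For islands with both marks the shares were 81.5%, 16.1% and 0.528%.

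The control counts were coarse at this scale. No control read was found in 11385 sites, exactly 1 in 1221, exactly 2 in 7982 and exactly 3 in 3719, so a count of 1 was rarer than the counts on both sides of it. Libraries were sequenced from both fragment ends, per the labels, and whether both reads of a pair were counted is not given in the sources used here. The authors' FDR step itself removed little: the deposited FDR values imply 125316 candidate islands in the whole H4K16ac list without doxycycline, of which 88.0% were listed. At an FDR of 0.001 or less 36899 sites (84.1%) remained, and at 0.01 or less 93.0%. For islands with H3K9ac only, with H3K27ac only and with both, the shares at 0.001 were 89.7%, 84.1% and 88.6%. At 0.01 they were 95.9%, 93.0% and 95.3%.

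**Figure D1:**
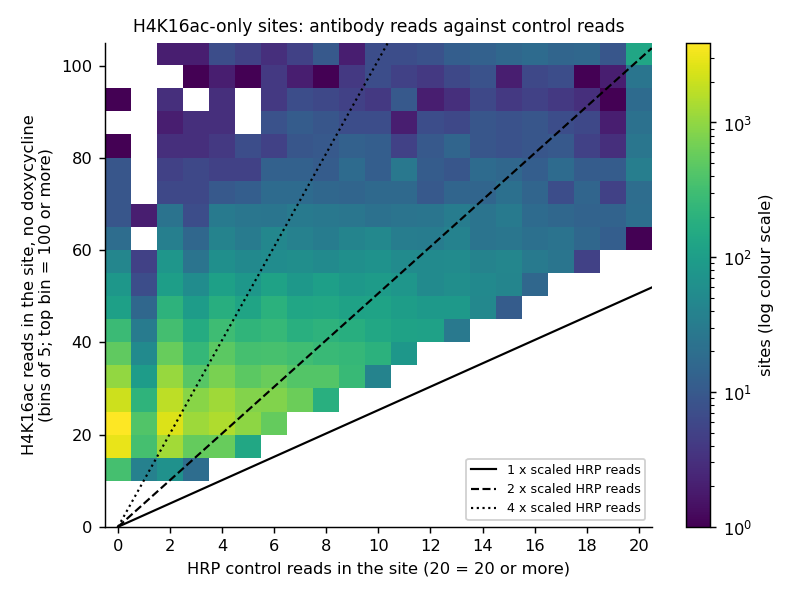
H4K16ac reads (vertical axis, bins of 5) against HRP control reads (horizontal axis) in the 43870 H4K16ac-only sites without doxycycline, with the number of sites as a log colour scale and lines at 1, 2 and 4 times the depth-scaled control reads. Most sites lie near 27 antibody reads and between 0 and 6 control reads, and the column at 1 control read is emptier than those at 0 and 2.

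The sites with the most reads were among the longest. The first was at 12q13.12 (chromosome 12, 49158601 to 49171600), where 13000 bp held 227 reads against 98.8 scaled control reads, a fold of 2.298. At 11q12.2 (chromosome 11, 61108201 to 61119000) 219 reads stood against 76.0 scaled control reads, and at 7p22.3 (chromosome 7, 2039201 to 2051800) 217 against 78.5. The 5 sites with most reads held 204 to 227 reads and had folds of 2.298 to 4.48. The longest site, 14000 bp at 3q28 (chromosome 3, 188469001 to 188483000), was the fifth in reads, with 204. Among sites with at least 50 reads and at least 1 control read, the highest folds were 27.3 at 3q26.2 (chromosome 3, 169803601 to 169807400), 26.1 at 13q21.32 (chromosome 13, 67192001 to 67195800) and 23.1 at 3q27.1 (chromosome 3, 183655401 to 183662200). These folds rest on 1, 1 and 2 control reads, and against the list's mean control density they were 3.88, 3.72 and 3.68.

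H4K16ac itself was listed again at fewer of these sites than elsewhere. At 2 days 18646 of the 43870 sites (42.5%, 42.0 to 43.0) overlapped an H4K16ac island, against 56.1% of all H4K16ac islands without doxycycline. At 7 days 27889 (63.6%, 63.1 to 64.0) did, against 74.7% of all. Islands with H3K9ac only had the highest shares, 72.3% and 88.4%, and islands with both marks had 65.3% and 81.2%. Islands with H3K27ac only, at 43.4% and 66.6%, were close to the H4K16ac-only sites. The 2-day list covered 33.4% of the bases in the sites and the 7-day list 59.2%, against 11.5% and 20.3% of chromosomes 1 to 22 as a whole.

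The gap to islands that carried both marks or H3K9ac was smaller among islands with more reads. Among islands of 20 to 29 reads, 35.6% of H4K16ac-only sites and 52.7% of islands with both marks had an H4K16ac island at 2 days. At 7 days these shares were 57.1% and 71.9%. Among islands of 100 reads or more the shares at 7 days were 96.2% (281 of 292 sites) and 98.7%. Had each site kept its depth-scaled reads, it would have held a median of 32 reads at 2 days and 84 at 7 days. Of the sites 99.9% and 100% would then have passed the largest p listed at that time. The other groups had 99.8% to 99.9% at 2 days and 100% at 7 days. Each island had already passed against the same control library in a shallower H4K16ac library. These shares were thus largely set in advance and cannot decide why sites were not listed again. This calculation leaves out how the caller joins windows, and it takes at face value counts that had to be high for a site to be listed. No replicate library shows how often a site would be listed again without induction.

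**Figure D2:**
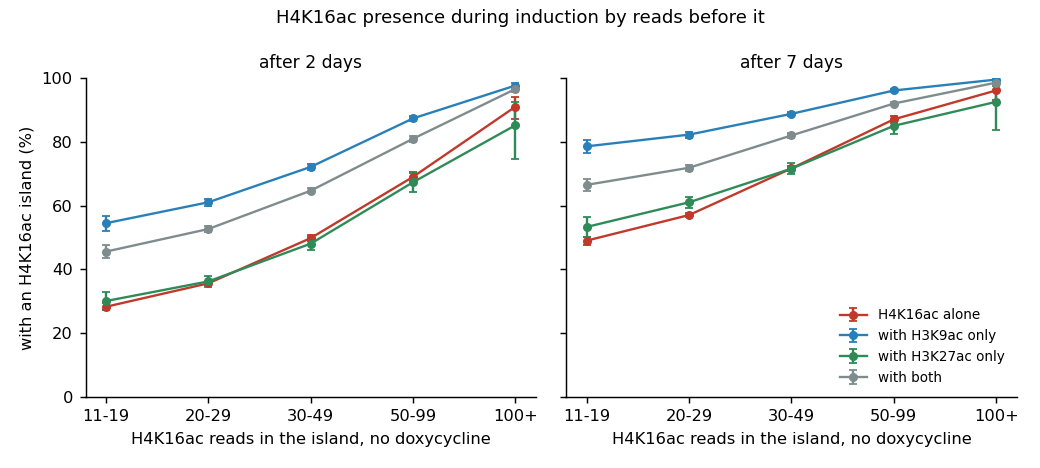
Share of H4K16ac islands without doxycycline that overlapped an H4K16ac island after 2 days (left) and 7 days (right), by their reads without doxycycline, with exact 95% intervals. The H4K16ac-only sites run from 28.3% to 91.1% at 2 days and from 49.1% to 96.2% at 7 days, below islands with H3K9ac only in every bin.

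The same rule was also applied at the later times and followed back to cells without doxycycline. H4K16ac was alone in 30662 islands (33.1% of the list) at 2 days and in 25206 (29.3%) at 7 days. Of those found alone at 2 days 39.7% overlapped an H4K16ac island without doxycycline, and of those found alone at 7 days 41.0% did. The forward share at 2 days, 42.5%, was close to the backward 39.7%, whereas at 7 days the forward 63.6% was above the backward 41.0%. The 7-day H4K16ac list covered 20.3% of chromosomes 1 to 22 and the list without doxycycline 9.54%, and the part of coverage in this gap was not tested.

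Tracing each site through both times, 15523 (35.4%) had H4K16ac at 2 and 7 days, 3123 (7.12%) at 2 days only, 12366 (28.2%) at 7 days only and 12858 (29.3%) at neither. Over all H4K16ac islands without doxycycline these shares were 49.9%, 6.22%, 24.8% and 19.1%. The sites listed at both times held a median of 32 reads without doxycycline, and those listed at neither held 24. The authors' fold had a median of 3.75 in both groups, which was also the median over all H4K16ac islands. The second fold, over the larger of local and mean control, had medians of 2.80 and 2.67. In 9334 sites (21.3%) no island of any of the 3 marks was listed at either later time, against 9.47% of all H4K16ac islands, which include those marked by H3 acetylation before induction.

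The sites with most reads among those absent at both times were at 17p13.1 (chromosome 17, 9146601 to 9153400), 4q21.1 (chromosome 4, 77653801 to 77661400) and 6p21.1 (chromosome 6, 43856001 to 43863000). They held 130, 124 and 105 reads against 93.7, 70.9 and 43.1 scaled control reads. The 5 of this kind had folds of 1.25 to 2.44. At the 6p21.1 site H3K9ac islands covered 100% of the bases at 7 days and H3K27ac islands 68.6%, though neither mark had an island there at 2 days.

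Where an H4K16ac island was present, the reads shared out to the site were lower at both times. Reads of each later island were shared out over the site by overlapping bases and divided by library size. The median log2 ratio, with the library before induction as the denominator, was -0.68 at 2 days (quartiles -1.21 and -0.32, 18646 sites) and -0.77 at 7 days (-1.16 and -0.48, 27889 sites). Of these sites 33.0% were at least 2-fold lower at 2 days and 33.0% at 7 days, against 28.8% and 28.0% of all H4K16ac islands, and 0 sites were at least 2-fold higher at either time, against 0.00% of all. All H4K16ac islands had to be high enough for calling before induction, and islands with both marks likewise had medians of -0.64 and -0.72. Sites covered over their whole length had medians of -0.41 (7373 sites) and -0.66 (19067 sites). Counting all reads of every touching island instead turned both medians positive, to 0.42 and 0.89, because the later islands reached beyond the sites. Islands over the sites had a median length of 3400 bp at 2 days and 6600 bp at 7 days, and 4446 of the 7-day islands joined 2 or more sites, up to 10 in 1 island. The direction of the ratio therefore depends on the measure and no change of H4K16ac level can be read from it.

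At 12q13.12, the site with the most reads, the islands at 2 days covered 63.1% of it with 139 reads, or 114 at the depth of the library without doxycycline. At 7 days they covered 92.3% with 481 reads shared out, or 155 at that depth, against 227 reads without doxycycline. Ratios were ranked among sites with at least 50 reads at either of the times compared. Over all H4K16ac-only sites the highest ratio at 2 days was 0.79. The highest ranked ratios at 2 days were at 9q21.11 (chromosome 9, 71858401 to 71861000), 6q24.2 (chromosome 6, 144807401 to 144810200) and 17p11.2 (chromosome 17, 19726401 to 19728800), with log2 ratios of 0.75, 0.72 and 0.69. These sites held 71.5, 72.3 and 80.7 raw shared-out reads at 2 days. At the depth of the library without doxycycline these were 58.7, 59.4 and 66.2 reads, against 35, 36 and 41 in that library. At 7 days the highest ranked ratios were 0.54 at 2q32.1 (chromosome 2, 183615401 to 183617800), 0.53 at 10q21.3 (chromosome 10, 69754601 to 69757400) and 0.52 at 11p15.5 (chromosome 11, 2416201 to 2418600). The 2q32.1 site was at 0.51 at 2 days too, with no island of either H3 mark at 2 or 7 days, and both its ratios use the same 26 reads without doxycycline. The lowest ranked ratios were at sites that a later island only just reached. At 9q34.3 (chromosome 9, 139398801 to 139405400) the 2-day island covered 3.03% of the site for a ratio of -5.98, and at 7 days islands covered 100% of it at -0.66. The next lowest at 2 days, -5.36 at 1q32.1 (chromosome 1, 200431801 to 200435400) and -5.09 at 1p34.1 (chromosome 1, 45871401 to 45878200), were covered over 5.56% and 2.94%. At 7 days the ratios at 10q11.21 (chromosome 10, 44192801 to 44198800), 5q14.1 (chromosome 5, 80540601 to 80546000) and 9q21.12 (chromosome 9, 73103001 to 73107000) were -5.48, -5.38 and -5.32, with 3.33%, 3.704% and 5% covered.

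H3K9ac islands appeared over nearly a like share of the sites at both times. At 2 days 13715 sites (31.3%, 30.8 to 31.7) overlapped an H3K9ac island, and at 7 days 14311 (32.6%, 32.2 to 33.1). Of all H4K16ac islands without doxycycline 58.7% and 60.0% did, a share that includes those already marked. H3K9ac covered 21.1% and 24.6% of the bases in the sites, against 11.3% and 12.9% of chromosomes 1 to 22. In all 20810 sites (47.4%) had H3K9ac at 2 or 7 days and 7216 (16.4%) at both, in 2-day and 7-day H3K9ac libraries that were 1.37 and 1.60 times as deep as the one before induction. Of all H4K16ac islands 72.3% had H3K9ac at 2 or 7 days and 46.5% at both. The part of depth in this was not tested. Sites with H4K16ac at the same time carried H3K9ac more often: 45.1% against 21.01% of sites without H4K16ac at 2 days, and 43.1% against 14.3% at 7 days. Shares of this split over all H4K16ac islands are not given here. The groups also differed in length, with a median of 2200 bp for sites with H4K16ac at both later times and 1600 bp for those with it at neither. The H3K9ac share was also higher where H4K16ac reads before induction were more: at 2 days it was 20.3% of sites with 11 to 19 reads and 76.4% of those with at least 100. In the same bins it was 21.8% and 80.5% at 7 days. The 5 sites with most reads were 10800 to 14000 bp long, against a median of 1800 bp for all the sites. A longer site meets the rule of 1 bp of overlap more easily, and the part of length in these shares was not tested. H3K9ac shares by reads over all H4K16ac islands are not given here.

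H3K27ac islands were scarce over the sites at 2 days and less scarce at 7 days. They overlapped 1748 sites (3.98%, 3.80 to 4.17) at 2 days and 4370 (9.96%, 9.68 to 10.2) at 7 days, against 36.2% and 36.5% of all H4K16ac islands. The shares over all islands include those already marked by H3K27ac before induction. H3K27ac islands covered 2.19% and 4.69% of the bases in the sites, against 8.77% and 7.58% of chromosomes 1 to 22. The rule kept out of the sites every base under an H3K27ac island before induction, and those islands covered 10.5% of the chromosomes. A share below that of the chromosomes is therefore in part set by the rule. The share was higher at 7 days, when the library was 0.474 times as deep as that at 2 days but the list held 83153 islands on chromosomes 1 to 22, against 58368 at 2 days. When at least 50% of a site had to be covered, H3K27ac was present in 4.32% at 7 days and 2.44% at 2 days. Islands with H3K9ac only had 11.4% at 2 days and 17.7% at 7 days, while islands that had both marks before induction had 88.5% at 2 days and 79.8% at 7 days. The 7-day H3K27ac islands over the sites were small, with a median of 19 reads over 1600 bp, against 27 reads over 2000 bp for the rest of that list. They had no control read in 30.6% of cases, against 24.8% for the rest. Just 464 sites had H3K27ac at both times, which was 26.5% of the 2-day sites and 10.6% of the 7-day sites. They were 1.06% of the H4K16ac-only sites, against 27.6% of all H4K16ac islands, again with those already marked among them. Among sites with at least 100 reads of H4K16ac before induction, H3K27ac was present in 4.79% at 2 days and 33.9% at 7 days (14 and 99 of 292 sites). The part of site length in these shares was not tested either. H3K27ac shares by reads over all H4K16ac islands are not given here.

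**Figure D3:**
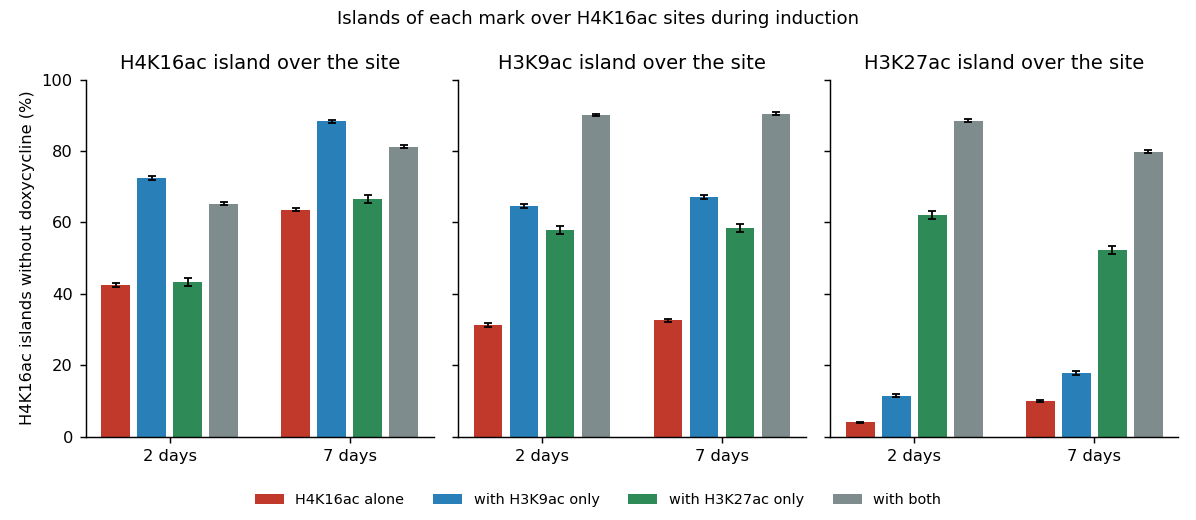
Share of H4K16ac islands without doxycycline that overlapped an island of H4K16ac, H3K9ac or H3K27ac at 2 and 7 days, by which H3 marks they overlapped before induction, with exact 95% intervals. For the H4K16ac-only sites (first bar of each set) H4K16ac was present in 42.5% and 63.6%, H3K9ac in 31.3% and 32.6%, and H3K27ac in 3.98% and 9.96%.

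H4K16ac without either H3 mark was the state of 9914 sites (22.6%) at 2 days and of 14380 (32.8%) at 7 days, against 14.0% and 19.7% of all H4K16ac islands. Shares over all islands here include those marked by H3 acetylation before induction. At all 3 times H4K16ac without either H3 mark was the state of 4150 sites (9.46%), and 5.24% of all H4K16ac islands had it at both later times. Those with most reads were at 2q32.2 (chromosome 2, 191362001 to 191370200), 2q11.2 (chromosome 2, 100505001 to 100512800) and 6q14.1 (chromosome 6, 80914801 to 80921400), with 125, 124 and 121 reads without doxycycline. At 2q32.2 the reads at the depth of that library were 104 at 2 days and 103 at 7 days, ratios of -0.27 and -0.28. At 2q11.2 they were 46.4 and 46.7, with 43.6% and 69.2% of the site covered. At 6q14.1 they were 7.48 and 75.9, with 9.09% and 100% of the site covered. At the other end, 177 sites (0.403%) had islands of both H3 marks at 2 and 7 days, against 23.2% of all H4K16ac islands, those already marked included. Of the 177 sites, those with most reads were at 1p32.3 (chromosome 1, 54752801 to 54762800), 5q11.2 (chromosome 5, 54646401 to 54654600) and 12p13.33 (chromosome 12, 2302601 to 2309000), with 163, 125 and 100 H4K16ac reads before induction. At 1p32.3 the touching H3K9ac islands held 92 raw reads at 2 days and 118 at 7 days, and the H3K27ac islands 60 and 44. These raw counts are not divided by library size, and no change can be read from them. The relative sizes at 2 and 7 days were 4.17 and 4.88 for H3K9ac, and 3.15 and 1.49 for H3K27ac.

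An H3K9ac island without doxycycline lay within 10 kb of 68.1% of the sites and within 1 kb of 13.2%. For H3K27ac these shares were 45.3% and 6.10%. No gap for randomly placed sites is given here, so the gaps are a description. The median gap to the nearest island without doxycycline was 5400 bp for H3K9ac (quartiles 2200 and 13200) and 11800 bp for H3K27ac (4400 and 27600). Another H4K16ac-only site lay a median of 7800 bp away. At the edge of the rule, 3323 sites had an H3 island within 400 bp and 3169 other islands overlapped one by at most 400 bp. Sites just inside the rule held a median of 28 reads and islands just outside it 26. H4K16ac was listed at 7 days in 78.2% of those inside and 78.3% of those outside.

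Presence during induction was lower farther from H3 acetylation. Of the sites within 400 bp of an H3 island without doxycycline, 56.2% had H4K16ac at 2 days and 78.2% at 7 days. Of those 20 to 100 kb away 27.8% and 40.6% did, and of the 338 sites farther than 100 kb 12.4% and 18.9%. The reads before induction differed less, at medians of 28, 25 and 23, and the summed fold over the control was 3.28, 3.38 and 3.51. H3K9ac ran the same way, present at 7 days in 49.9%, 16.3% and 6.51% of the 3 sets. H3K27ac at 7 days was present in 16.04%, 4.56% and 4.73%. No cause of this difference was tested.

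**Figure D4:**
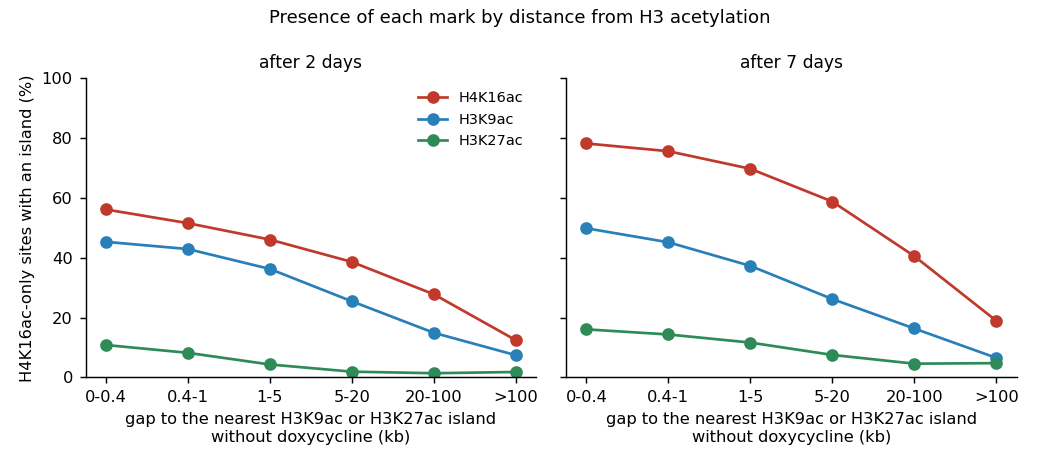
Share of the 43870 H4K16ac-only sites with an island of each mark after 2 days (left) and 7 days (right), by the gap to the nearest H3K9ac or H3K27ac island without doxycycline. H4K16ac is at 56.2% in the nearest bin and 12.4% in the farthest at 2 days, and at 78.2% and 18.9% at 7 days; the bin beyond 100 kb holds 338 sites.

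The sites were spread over all 22 autosomes at 8.50 to 18.3 per Mb, most densely on chromosome 2 and least on chromosome 16. They made up 58.3% of H4K16ac islands on chromosome 13 and 28.8% on chromosome 17. Light Giemsa bands, the gene-rich stripes of stained chromosomes, held 18.1 sites per Mb and the darkest bands 13.5. Islands with both marks differed more, with 16.4 per Mb in light and 5.16 per Mb in the darkest bands. The H4K16ac-only share of H4K16ac islands was accordingly 37.2% in light and 54.0% in the darkest bands. At 7 days the sites in the darkest bands had H4K16ac in 58.8%, H3K9ac in 25.7% and H3K27ac in 4.99%, against 65.4%, 34.5% and 11.7% in light bands. In windows of 1 Mb the median was 14 sites, and 491 of 2897 windows had none. The fullest windows, picked after their values were seen, held 50 sites at 7q21.11 (chromosome 7, 81000001 to 82000000), 49 at 5q13.2 (chromosome 5, 73000001 to 74000000) and 49 at 6q24.1 (chromosome 6, 139000001 to 140000000).

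H3K27ac at 7 days was unevenly placed among chromosomes. It overlapped 22.7% of the 639 sites on chromosome 19, 18.9% on chromosome 22 and 18.4% on chromosome 17, against 4.75% on chromosome 13 and 6.68% on chromosome 4. The 7-day H3K27ac list covered 12.2%, 10.1% and 15.5% of chromosomes 19, 22 and 17, and 2.87% and 5.06% of chromosomes 13 and 4. At 2 days the share on chromosome 19 was 5.01%, with 10.7% of the chromosome covered. Chromosome 19 had the lowest shares for H4K16ac at both times, 26.5% and 57.4%, and for H3K9ac, 20.3% and 19.2%. The H4K16ac lists covered 3.86% of chromosome 19 at 2 days, the lowest of the 22 chromosomes, and 10.7% at 7 days, and the H3K9ac lists covered 7.92% and 8.40%. It also had the highest share of sites with no control read, 35.4%.

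**Figure D5:**
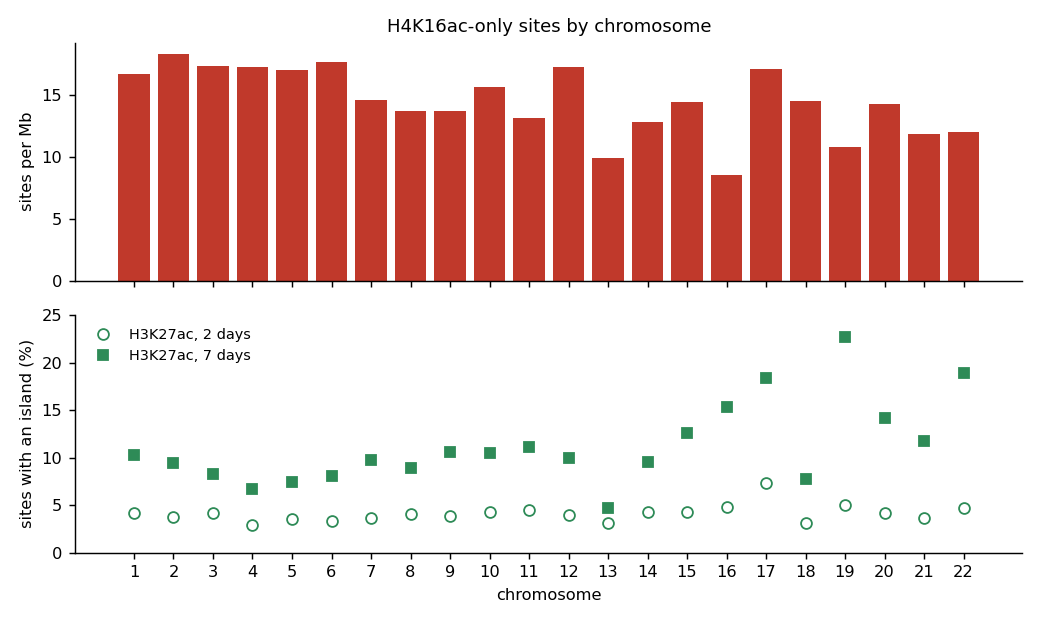
H4K16ac-only sites per Mb (top) and the share of them with an H3K27ac island after 2 days (open circles) and 7 days (squares), by chromosome. Density lies between 8.50 and 18.3 per Mb, and the 7-day share reaches 22.7% on chromosome 19 against 4.75% on chromosome 13.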

How the data were processed

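Per the submitters' processing notes, the build was hg19, Bowtie2 was version 2.3.5.1, and cutadapt, FastQC, Picard, deepTools and SICER were also used. The sources used here do not give settings, duplicate handling or whether both reads of a pair were counted. The authors called islands on 1 library each against the HRP control, and every island spans a whole number of 200 bp steps. Deposited per island were the antibody and HRP read counts, not normalized, a p-value with its FDR, a log2 fold and a score. The deposited log2 fold was log2 of antibody over HRP reads minus a value fixed within each list, which gives relative library size, and the deposited score was 100 times it. The deposited p-value equalled a Poisson tail above the count, within a relative difference of 3.64e-12.

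From these, overlaps, shared-out reads and gaps were computed with Python 3.11.15, numpy 2.4.6, pandas 2.3.3 and scipy 1.17.1, and tested on simulated data. Giemsa bands and chromosome lengths came from circlize 0.4.16. Coordinates are 1-based on hg19. The 643 H4K16ac islands without doxycycline outside chromosomes 1 to 22 were not used. The sites and measures were chosen with earlier results of these data known. Sites are named by fixed rules: the 5 with most reads, length, fold, rise or fall per time, and the 5 with most reads that were absent, alone or gained both H3 marks at later times. Folds were ranked among sites with at least 50 reads and at least 1 control read. Rises and falls were ranked among sites with an island at both times compared and at least 50 reads at either. The text prints the first 3. No sequence is printed and no gene is named, since no genome or annotation of hg19 was used here. The fold over the mean control density was added after the data were seen. Alternatives are in the closing section.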

Additional observations from a re-analysis of the deposited data

Results flagged for a closer look

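At 6 of the named sites the H4K16ac ratio over the library without doxycycline had opposite signs at 2 and 7 days. In 4 of them it was positive at 2 days. The log2 ratio at 9q21.11 was 0.75 at 2 days and -0.090 at 7 days. At 6q24.2 it was 0.72 and -0.23, at 17p11.2 0.69 and -0.14, and at 8p22 (chromosome 8, 15611601 to 15614600) 0.67 and -0.10. The other 2 were positive at 7 days. At 6p21.1 (chromosome 6, 41808601 to 41810800) the ratio was -0.85 at 2 days and 0.49 at 7 days, and at 2q37.1 (chromosome 2, 234348001 to 234351600) -0.78 and 0.49. Each site was named for a high ratio at the time at which it was positive, each time is 1 library, and the differences were not tested.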

How the results depend on the processing

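Each value rests on 1 library, so depth and calling limit all of them. No paired analysis was possible because each group has 1 library. Leaving out sites within 1 kb of an H3 island left 36366 sites. H4K16ac was then present in 40.2% at 2 days and 60.8% at 7 days, H3K9ac in 28.6% and 29.6%, and H3K27ac in 2.88% and 8.90%, and the ratio at 7 days was -0.79. With an FDR of 0.001 in all lists there were 39324 sites, and the shares were 41.2% and 63.0% for H4K16ac, 30.4% and 31.8% for H3K9ac, and 9.66% for H3K27ac at 7 days, with ratios of -0.67 and -0.76. The 4386 sites with at least 50 reads had shares of 70.5% and 87.8%, 56.0% and 56.2%, and 5.24% and 19.9%, with ratios of -0.75 and -0.63. Requiring at least 50% of a site to be covered gave 33.2% and 58.0%, 21.2% and 24.6%, and 2.44% and 4.32%. With equal numbers of islands per list H4K16ac was present in 43.8% and 66.2%. Counting all reads of touching islands reversed the ratios to 0.42 and 0.89, since islands reach beyond the sites. Scaling by reads in islands gave -0.75 and -1.28, and fully covered sites, a choice made after seeing the data, gave -0.41 and -0.66. H4K16ac was more frequent at 7 than at 2 days in all 5 settings that recomputed it, and H3K27ac was the least frequent mark in the 4 that recomputed all marks. Every setting kept the deeper H4K16ac library at 7 days, with a relative size of 7.88 against 3.08 at 2 days, so the part of depth in the first of these was not tested.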
